A study of Rattus norvegicus with 29 samples.

Results

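The comparison sets 5 arrays of rats taken after pain against 5 arrays of rats taken after conditioning in the presence of isoflurane, an inhaled anaesthetic, all 10 from the basolateral amygdala 6 h after treatment. They were chosen by their sample titles, pain and IFC, and make up 10 of the 29 arrays of the study. The other groups are 9 untreated baseline arrays, given without a time, 5 arrays after fear conditioning (FC) and 5 after isoflurane alone. IFC was read as conditioning under isoflurane through the study's design text. The labels of the pain group name no anaesthetic and no paired signal, so the 2 groups differ in more than 1 respect. The labels describe pain as a component of the conditioning procedure. Strain, sex, age, anaesthetic dose and the stimulus are not given in the sources used here. Each of the 10 arrays carries its own rat number, 9 to 13 for pain and 22, 26, 29, 30 and 32 for IFC, so the order of the rats and the treatment cannot be told apart.

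In fear conditioning, a neutral cue gains the power to evoke fear because it was paired with pain, and the basolateral amygdala is needed to store that association. Its output is carried by glutamatergic projection neurons, held in check by local GABAergic interneurons. Neuronal activity induces Fos, Arc and other immediate early genes within minutes, and their transcripts decline over the following hours. Isoflurane acts on GABA-A receptors and leak potassium channels, among other targets, and can block the formation of fear memory. Pain and handling raise circulating corticosterone, which induces Fkbp5, a brake on the glucocorticoid receptor.

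One-colour expression arrays were used, in which a set of short probes (a probe set) reports the level of 1 transcript as a fluorescence signal. Signals are given as log2 values, so a difference of 1 is a doubling, and values of different probe sets are not set against each other. After dim probe sets were left out, 9520 were tested, representing 7048 genes. Of the excitatory neuron markers with a probe set of their own, 9 of 10 passed that filter, as did 13 of 14 markers of GABAergic interneurons and 20 of 20 of astrocytes. One pain array stood apart. Pain array 3 had a median deposited signal of 292.2, against 226.5 to 244.1 on the other pain arrays, and a mean correlation of 0.9064 with the other 28 arrays, against 0.950 to 0.966 for every other array. Most differences and list medians are therefore given both with and without it.

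**Figure D1:**
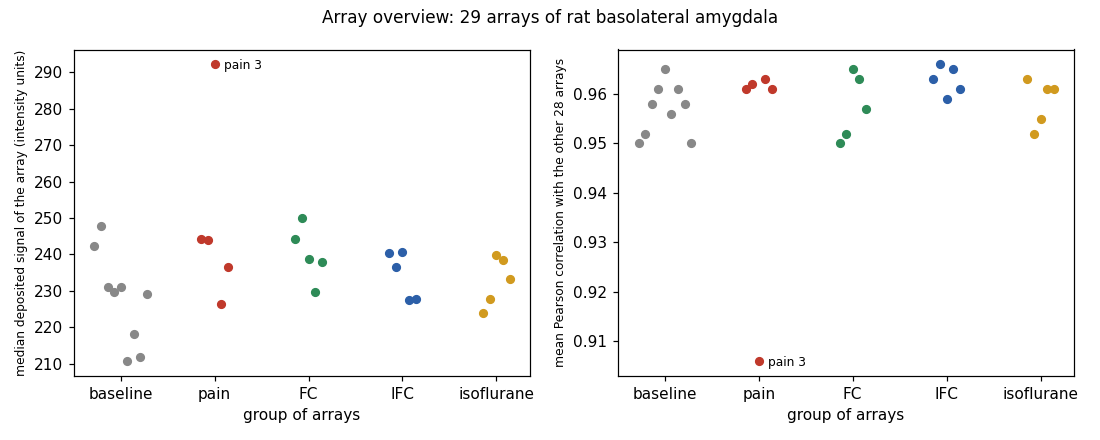
Median deposited signal (left, intensity units) and mean Pearson correlation with the other 28 arrays (right) for each of the 29 arrays, by group. Each point is 1 array. Pain array 3 lies at 292.2 and 0.9064, apart from the other arrays on both measures.

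No transcript differed between pain and conditioning under isoflurane after adjustment. The limma test called 0 of 9520 probe sets (0%) at a Benjamini-Hochberg adjusted p under 0.05, with a lowest adjusted p of 0.451, and 0 without pain array 3, with a lowest adjusted p of 0.929. At an unadjusted p under 0.05 there were 874 probe sets (9.18%), where 476 would be so by chance if no level differed. Of these, 397 (4.17%) were higher after pain and 477 (5.01%) lower. Centring each array on its median in place of quantile normalization turned that split into 203 higher and 714 lower. Without pain array 3 the count was 481 (5.05%), close to the chance number, with 223 higher (2.34%) and 258 lower (2.71%). All 874 kept their sign without that array, but they were picked by p with mostly the same arrays, so this is only a description. Of them, 367 were under 0.05 in both settings. The median standard error of a difference was 0.14, and the median size of a difference over the 7048 genes was 0.11. The values that follow are therefore a description of the 10 rats, and none is a called change.

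**Figure D2:**
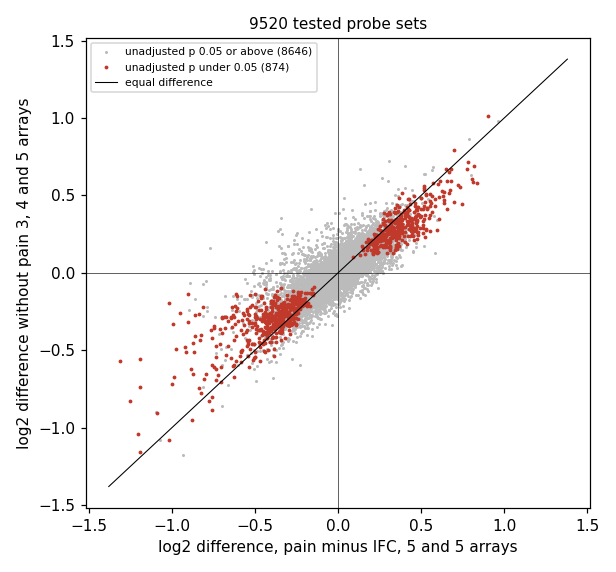
Log2 difference of pain minus IFC from all 10 arrays (horizontal) against the same difference without pain array 3 (vertical) for the 9520 tested probe sets. Red points are the 874 at unadjusted p under 0.05, and many of those below 0 on the horizontal axis lie nearer to 0 on the vertical one.

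Among genes that averaged higher after pain, the 12 with the lowest p differed by 0.18 to 0.68 (0.17 to 0.67 without pain array 3), all at an adjusted p of 0.451. The values of 6 of these 12 did not overlap between the groups. Over all 9520 probe sets, 151 (1.59%) did not overlap, 0.735% of all being higher and 0.851% lower after pain, but the genes were picked by p in this same comparison, so that count is only a description. The baseline mean lay nearer to the pain mean in 10 of the 12.

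Gnpda1, which converts glucosamine 6-phosphate into fructose 6-phosphate, measured 9.10, 8.84, 9.17, 8.84 and 9.07 in pain arrays 1 to 5 and 8.62, 8.66, 8.59, 8.53 and 8.69 in IFC arrays 1 to 5. Every pain value was above every IFC value. Its difference was 0.39 ± 0.09 (SE of the limma fit, n = 5 and 5), a fold of 1.31, and 0.34 without pain array 3. Each ± of a gene difference is this SE, whose spread is shared over all 5 groups of the 29 arrays. It can understate the spread of the compared rats where the pain arrays scatter more, as for Crebbp (SD 0.86 in pain and 0.30 in IFC, SE 0.28). Ugdh, which makes the UDP-glucuronate needed for proteoglycan chains, measured 9.76, 10.15, 9.53, 9.49 and 9.32 in pain arrays 1 to 5 and 9.29, 9.07, 9.08, 9.10 and 9.12 in IFC arrays 1 to 5. The groups did not overlap, although pain array 5 at 9.32 and IFC array 1 at 9.29 nearly met, and the difference was 0.52 ± 0.13, and 0.55 without pain array 3. Pdhx, a component of the pyruvate dehydrogenase complex, overlapped: IFC array 5 at 8.84 exceeded pain array 2 at 8.57, with a difference of 0.61 ± 0.16, and 0.49 without pain array 3.

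Within this set, Abcc8 and Kcnk6 are potassium channel genes. Abcc8 encodes SUR1, the regulatory subunit of ATP-sensitive potassium channels, and measured 7.21, 7.56, 7.35, 7.49 and 7.53 in pain arrays 1 to 5 and 6.88, 6.92, 6.90, 7.08 and 6.78 in IFC arrays 1 to 5. The groups did not overlap, with a difference of 0.52 ± 0.13 and 0.54 without pain array 3. Abcc8 was among the dimmest probe sets kept, as its mean over the 29 arrays, 7.26, equalled the filter limit of 7.26. Among genes named below, Apcs (7.34), Plagl2 (7.41), Epb41 (7.42) and Kcnj3 (7.47) also had means just above that limit. Whether such dim transcripts were detected was not tested. Kcnk6, of the K2P potassium channel family, measured 7.76, 8.12, 8.17, 7.90 and 7.64 in pain arrays 1 to 5 and 7.11, 7.48, 7.19, 7.37 and 7.14 in IFC arrays 1 to 5. All pain values were again the higher ones, and the difference was 0.65 ± 0.17, and 0.59 without pain array 3. Kcnj3, the GIRK1 subunit of G-protein-gated potassium channels, was not in this set but was named for its large difference without overlap. It differed by 0.67 ± 0.25 (0.52 without pain array 3), and its other probe set by 0.20 ± 0.18 (0.17). IFC array 5 was low for Kcnj3, at 6.41 against 7.30 to 7.51 on the other IFC arrays.

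RT1-S3, a class Ib gene of the rat major histocompatibility complex, measured 7.84, 7.80, 7.99, 7.84 and 8.34 in pain arrays 1 to 5 and 7.56, 7.61, 7.06, 6.66 and 7.52 in IFC arrays 1 to 5. No values overlapped, and the difference was 0.68 ± 0.18 (0.67 without pain array 3), while its other probe sets gave 0.22 ± 0.19 and 0.36 ± 0.26 (0.22 and 0.38). Genes of this family are near copies of each other, so the probe sets may read several of them. Dtna, which encodes alpha-dystrobrevin of the dystrophin complex, differed by 0.57 ± 0.16 without overlap, and by 0.58 without pain array 3. Gpr89b, Ier5l, Sf3b5 (a subunit of the spliceosomal SF3b complex) and Rpl6 (a protein of the large ribosomal subunit) overlapped, with differences of 0.41, 0.54, 0.46 and 0.18, which were 0.39, 0.42, 0.39 and 0.17 without pain array 3. Hsp90ab1, the constitutive cytosolic Hsp90, gave 0.53 ± 0.15 on 1 probe set and 0.00 ± 0.09 on another (0.51 and 0.05 without pain array 3). The 2 probe sets of this gene thus disagree.

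The genes that averaged lower after pain were led by Secisbp2l, Plagl2 and Epb41. The 12 with the lowest p differed by -1.0 to -0.34 (-0.83 to -0.29 without pain array 3), also at an adjusted p of 0.451, and 6 of the 12 did not overlap. Here the baseline mean lay nearer to the IFC mean in 7 and nearer to the pain mean in 5.

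Secisbp2l, related to the SECIS-binding protein that inserts selenocysteine, measured 9.42, 9.61, 9.04, 9.22 and 9.31 in pain arrays 1 to 5 and 9.85, 9.84, 10.00, 9.80 and 10.03 in IFC arrays 1 to 5. The groups did not overlap, with a difference of -0.58 ± 0.13 and -0.51 without pain array 3. Plagl2, a zinc-finger transcription factor, measured 6.85, 7.26, 7.05, 6.90 and 6.26 in pain arrays 1 to 5 and 7.67, 7.69, 7.63, 7.45 and 7.78 in IFC arrays 1 to 5. Every IFC value was higher, and the difference was -0.78 ± 0.19, and -0.83 without pain array 3. Clk1, a kinase that phosphorylates splicing factors, measured 9.61, 9.57, 9.41, 9.71 and 9.37 in pain arrays 1 to 5 and 10.31, 10.33, 10.28, 10.10 and 9.80 in IFC arrays 1 to 5. It did not overlap either, with a difference of -0.63 ± 0.19, and -0.60 without pain array 3.

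Camk2d, the delta chain of calcium/calmodulin-dependent kinase II, measured 11.48, 11.42, 11.23, 11.52 and 11.54 in pain arrays 1 to 5 and 11.70, 11.65, 11.92, 11.83 and 11.82 in IFC arrays 1 to 5. The groups did not overlap and the difference was -0.34 ± 0.10 (-0.29 without pain array 3), yet 2 other probe sets of the same gene gave 0.01 ± 0.14 and 0.16 ± 0.20 (-0.04 and 0.24). Col5a2, a fibrillar collagen chain, differed by -0.63 ± 0.17 without overlap, and by -0.16 ± 0.15 on its other probe set (-0.68 and -0.16 without pain array 3). Fbxl6, an F-box protein, differed by -0.59 ± 0.16, also without overlap, and by -0.50 without pain array 3.

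Several of the lower differences leaned on pain array 3. Zfand2a, a stress-inducible zinc-finger protein, was at 5.70 on that array and 6.18 on pain array 5, against 7.37 to 7.53 on the other 3 pain arrays, and its difference moved from -1.0 to -0.72 without pain array 3. Supt6h, a transcription elongation factor, was at 7.44 there and at 9.25 to 9.54 on the other pain arrays, and moved from -0.75 to -0.36. Ep400, a chromatin remodeller, was at 6.72 there, and moved from -0.65 to -0.29. Tbc1d23, a trafficking protein, moved from -0.68 to -0.35. Kat6b, a histone acetyltransferase, moved from -0.67 to -0.47, and its other probe set gave -0.17 ± 0.21. Supt6h, Ep400 and Tbc1d23 were named because their values did not overlap between the groups. Leaving out an array cannot make such values overlap. Washc3, Rprd1b and Epb41 overlapped, with differences of -0.67, -0.44 and -0.61, which were -0.53, -0.39 and -0.57 without pain array 3. On the higher side, Terf2, a telomere-binding protein, had the largest difference without overlap among probe sets with 1 gene symbol, 0.90 ± 0.36, and 1.01 without pain array 3, followed by RT1-S3, Apcs and Scarf2, each at 0.68 (0.67, 0.59 and 0.54 without pain array 3).

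**Figure D3:**
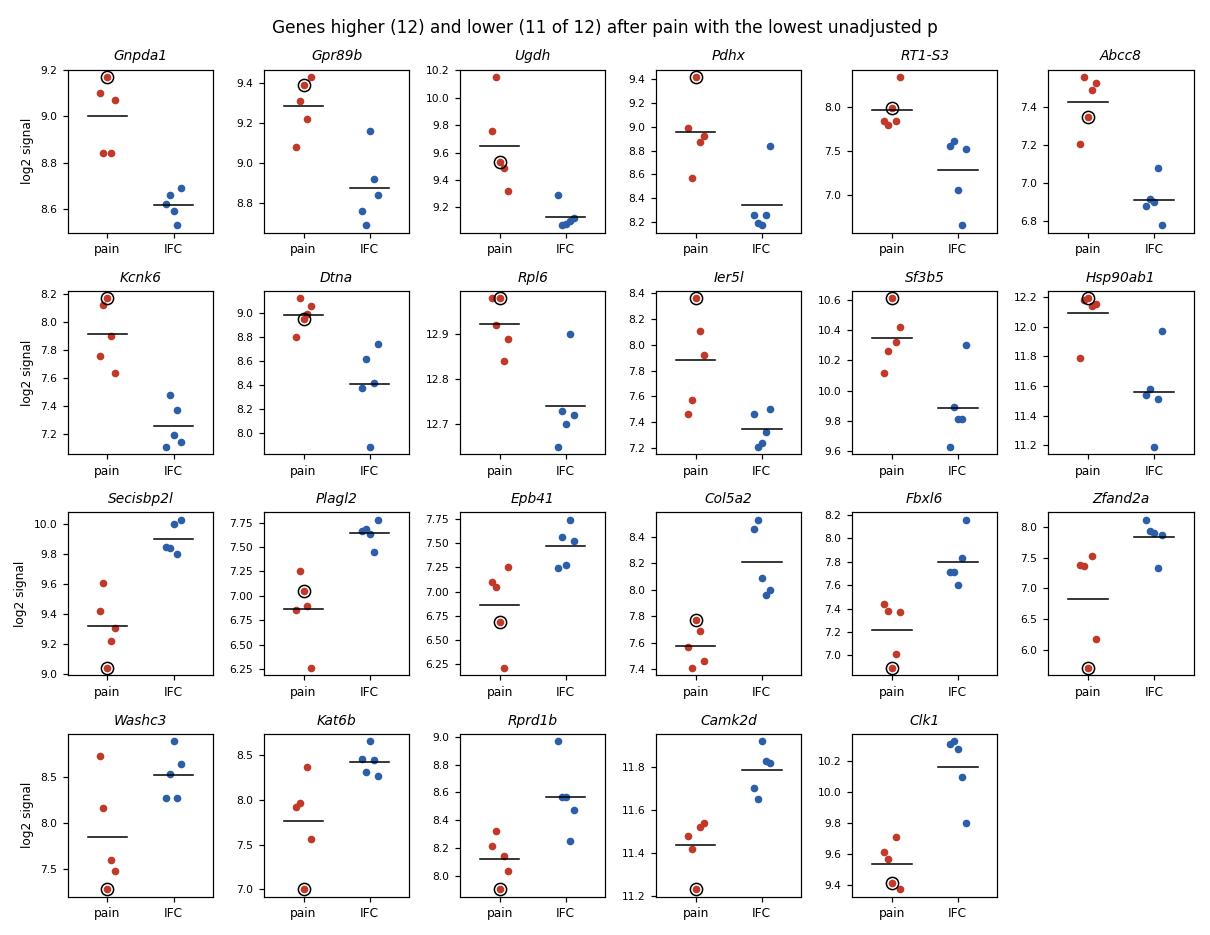
Log2 signal of the 12 genes higher (top 2 rows) and 11 of the 12 lower (bottom 2 rows) after pain with the lowest unadjusted p. Each point is 1 array, bars are group means, and the ringed point is pain array 3, which is the lowest of the 10 arrays for Zfand2a at 5.70.

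With quantile normalization, genes of energy supply and protein handling leaned higher after pain by small amounts. The lean was not particular to them: 17 of the 30 gene lists had a median above that of all genes. For oxidative phosphorylation genes it was not seen under the deposited scaling. Over all 7048 genes, 3449 (48.9%) were above 0, with a median of -0.0045, while 274 (3.89%) were higher and 335 (4.75%) lower at unadjusted p under 0.05. Without pain array 3, 51.9% were above 0. Of 62 mitochondrial ribosome genes, which translate the few proteins encoded in mitochondria, 44 were above 0 (54 without pain array 3), with a median of 0.10 (0.09 without pain array 3). Of these, 8 were higher and 1 lower at unadjusted p under 0.05, and 0 passed adjustment. mrpl11 measured 10.38, 10.28, 10.26, 10.13 and 10.28 in pain arrays 1 to 5 and 10.18, 10.01, 9.91, 9.85 and 9.93 in IFC arrays 1 to 5. The groups met only where pain array 4 at 10.13 lay below IFC array 1 at 10.18, and the difference was 0.29 ± 0.08 with and 0.29 without pain array 3. Mrps25 differed by 0.23 ± 0.08, Mrpl36 by 0.19 ± 0.08 and Mrpl28 by 0.23 ± 0.10 (0.18, 0.20 and 0.23 without that array), the last 2 without overlap, which held for 0.752% of all genes on the higher side. Mrpl43 had the opposite sign, at -0.20 ± 0.09 (-0.17). With arrays centred on their medians, 33 of the 62 were above 0 and the list median was 0.01, against a median of -0.08 and 31.8% above 0 for all genes.

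The mitochondrial ribosome list was chosen for promoters because it had the most members at unadjusted p under 0.05. It also had the most tested members, 62, while the voltage-gated channel list had 5 lower and 1 higher among 30. Shown are the promoters of the 3 mitochondrial ribosome genes with the lowest p that the RefSeq table (build GRCr8) holds. They run 5′ to 3′ from 250 bases before to 50 bases after the start, at chr1:211693557-211693856 on the plus strand for mrpl11, chr4:126237163-126237462 on the minus strand for Mrps25 and chr11:44778417-44778716 on the plus strand for Mrps6. Capitals mark a match to any of the motifs searched.
mrpl11: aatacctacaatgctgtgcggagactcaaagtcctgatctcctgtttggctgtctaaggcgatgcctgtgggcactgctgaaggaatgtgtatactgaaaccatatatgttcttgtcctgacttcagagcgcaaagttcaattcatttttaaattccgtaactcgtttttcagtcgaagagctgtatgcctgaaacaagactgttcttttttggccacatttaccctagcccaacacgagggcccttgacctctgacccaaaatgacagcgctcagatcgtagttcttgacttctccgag
Mrps25: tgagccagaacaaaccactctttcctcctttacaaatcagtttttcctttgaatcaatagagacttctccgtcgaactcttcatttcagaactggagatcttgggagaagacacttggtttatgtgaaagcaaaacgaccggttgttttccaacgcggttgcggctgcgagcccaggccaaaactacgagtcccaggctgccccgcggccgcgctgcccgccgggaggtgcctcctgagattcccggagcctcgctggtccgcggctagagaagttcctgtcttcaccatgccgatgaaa
Mrps6: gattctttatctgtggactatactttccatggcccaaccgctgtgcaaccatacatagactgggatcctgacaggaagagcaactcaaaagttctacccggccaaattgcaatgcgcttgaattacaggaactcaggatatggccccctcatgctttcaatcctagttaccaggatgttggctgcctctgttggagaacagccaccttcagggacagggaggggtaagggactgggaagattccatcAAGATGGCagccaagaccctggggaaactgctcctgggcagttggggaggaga
Both strands were searched for 5 motifs, the last 3 added after the counts of the first 2 were seen: the strict NRF1 palindrome of 10 bases, GABPA (CCGGAAGT), the NRF1 palindrome with 1 free base, the ETS core (CCGGAAG) and YY1 (AAGATGGC). The ETS core lies within the GABPA motif, and the free-base form includes the strict NRF1 palindrome. Mrps6 held YY1, and mrpl11 and Mrps25 held none of the 5. Promoters were found for 49 of the 62 genes. Among them 8.16% held NRF1, 8.16% GABPA, 14.3% the free-base NRF1, 22.4% the ETS core and 24.5% YY1. The shares of all 27457 promoters were 0.936%, 4.02%, 4.67%, 9.21% and 3.41%. These shares describe the gene family and do not use the arrays.

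Oxidative phosphorylation genes showed a smaller lean, with 39 of 55 above 0 and a median of 0.04 (43 and 0.05 without pain array 3). Atp5f1a, the alpha subunit of ATP synthase, differed by 0.15 ± 0.06, and Ndufs1, a core subunit of complex I, by 0.20 ± 0.09 without overlap (0.15 and 0.20 without pain array 3). Under the deposited scaling 28 of the 55 were above 0, with a median of 0, which was also the median of all genes. With arrays centred on their medians 11 were above 0, and the list median of -0.08 equalled that of all genes. Cytosolic ribosomal proteins had 30 of 39 above 0 and a median of 0.07, and 27 and 0.03 without pain array 3. Under the deposited scaling 26 of the 39 were above 0, with a median of 0.04. With median centring 10 were, and the median was -0.04, against -0.08 for all genes.

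Of 18 genes of endoplasmic reticulum stress and folding, 15 were above 0 (17 without pain array 3), with a median of 0.11 (0.12). Sdf2l1, a chaperone partner of the endoplasmic reticulum, measured 9.21, 9.31, 9.46, 9.32 and 9.28 in pain arrays 1 to 5 and 9.25, 8.88, 9.05, 8.77 and 9.14 in IFC arrays 1 to 5. The groups overlapped only through IFC array 1 at 9.25, and the difference was 0.30 ± 0.12, and 0.26 without pain array 3. Atf4, the transcription factor of the integrated stress response, differed by 0.24 ± 0.11, and by 0.14 without pain array 3, where it was highest at 11.64. Of 27 genes of oxidative stress and xenobiotic metabolism, 23 were above 0 (20 without pain array 3), with a median of 0.08 in both settings. Hmox1, the inducible heme oxygenase, measured 7.85, 8.06, 7.87, 7.76 and 7.68 in pain arrays 1 to 5 and 7.55, 7.43, 7.47, 7.05 and 7.62 in IFC arrays 1 to 5. Every pain value was the higher, and the difference was 0.42 ± 0.14, with 0.41 without pain array 3. Sod3, the extracellular superoxide dismutase, differed by 0.45 ± 0.15 without overlap, and by 0.28 without pain array 3, where it was at 9.80 against 8.79 to 9.16 on the others. With median centring 9 of the 18 and 12 of the 27 genes were above 0, with medians of 0.02 and -0.01.

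**Figure D4:**
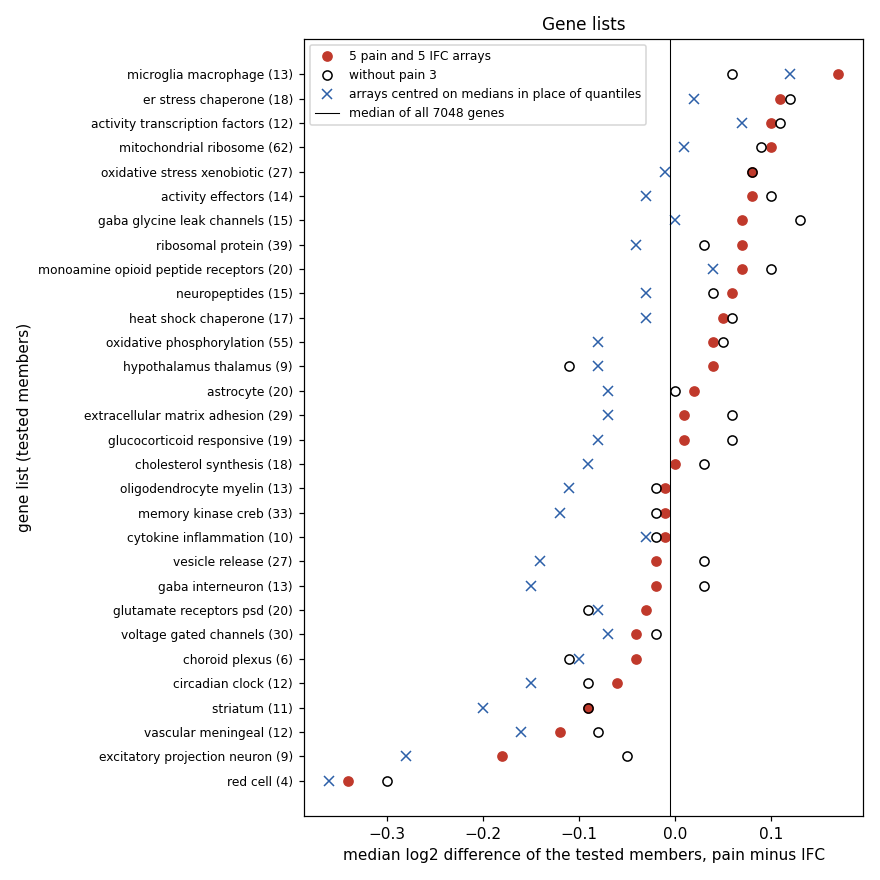
Median log2 difference of pain minus IFC over the tested members of each of 30 gene lists (number tested in parentheses), with all 10 arrays (filled), without pain array 3 (open) and with arrays centred on their medians (crosses). The vertical line is the median of all 7048 genes, -0.0045, and the crosses lie to the left of the filled points throughout.

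Genes of neuronal excitability went both ways. Of 30 voltage-gated channel genes, 13 were above 0 with a median of -0.04 (13 and -0.02 without pain array 3). At unadjusted p under 0.05, 5 were lower and 1 higher, against 4.75% and 3.89% of all genes. Without pain array 3, 2 were lower at that level, against 2.48% of all genes. Scn2a, the Nav1.2 sodium channel, measured 10.11, 9.94, 9.27, 10.39 and 10.13 in pain arrays 1 to 5 and 10.33, 10.29, 10.39, 10.70 and 10.48 in IFC arrays 1 to 5. Pain array 3 at 9.27 was far the lowest and pain array 4 lay within the IFC range, with a difference of -0.47 ± 0.15 and -0.30 without pain array 3. Kcnd3, the Kv4.3 channel of A-type current, differed by -0.76 ± 0.28, and by -0.60 without that array. Kcnab1, a potassium channel beta subunit, had the opposite sign, at 0.47 ± 0.19, and 0.42 without that array.

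Among the 15 genes of GABA-A and glycine receptors and leak channels, among them targets of anaesthetics, 10 were above 0, with a median of 0.07. Without pain array 3 the median was 0.13, with median centring 0 and with a filter at the 70th percentile -0.03. Gabrb1, the beta1 subunit of GABA-A receptors, measured 10.99, 10.55, 10.41, 10.88 and 10.41 in pain arrays 1 to 5 and 11.19, 11.17, 10.73, 11.04 and 11.07 in IFC arrays 1 to 5. Pain arrays 1 and 4 lay within the IFC range, and the difference was -0.39 ± 0.14, and -0.33 without pain array 3. Kcnk1, a K2P channel, differed by 0.35 ± 0.17 (0.30). Of 20 glutamate receptor and postsynaptic density genes, 9 were above 0, with a median of -0.03. At unadjusted p under 0.05 in the limma fit there were 0, against 8.64% of all genes. Leaving out pain array 3 gave 7 above 0 and a median of -0.09. Grik2 and Grin1, a kainate and an NMDA receptor subunit, differed by -0.26 ± 0.19 and -0.13 ± 0.12 (-0.32 and -0.10 without pain array 3). Of 20 receptors for monoamines, opioids and peptides, 15 were above 0 (14 without pain array 3), with a median of 0.07 (0.10). Htr2a, the serotonin 2A receptor, differed by 0.52 ± 0.21 and Hrh3, the histamine H3 receptor, by 0.33 ± 0.14, which became 0.35 and 0.23 without pain array 3.

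Genes tied to memory formation are given by group of function, and differences between these groups were not tested. Of 33 kinases, phosphatases and CREB-pathway genes, 16 were above 0, with a median of -0.01 (14 and -0.02 without pain array 3). Crebbp, the coactivator of CREB, differed by -0.65 ± 0.28, and by -0.29 without pain array 3, where it was at 6.71 against 8.15 to 9.03 on the others. Of 12 activity-regulated transcription factors, 9 were above 0 with a median of 0.10, and of 14 activity-regulated effectors 11, with a median of 0.08. These were again 9 and 11 without pain array 3, with medians of 0.11 and 0.10. With median centring they were 7 and 3, with medians of 0.07 and -0.03. Of these 12 and 14 genes, 0 were under an unadjusted p of 0.05 in the limma fit, against 8.64% of all genes. Fos measured 6.71, 7.89, 8.40, 7.36 and 8.70 in pain arrays 1 to 5 and 8.65, 7.96, 7.84, 8.18 and 6.69 in IFC arrays 1 to 5. The groups spanned nearly the same range, with a difference of -0.05 and a 95% interval of -0.88 to 0.78, and -0.20 without pain array 3. Arc differed by 0.04 (-0.35 to 0.42) and Bdnf, a neurotrophin, by -0.07 (-0.60 to 0.46), which were -0.01 and 0.10 without that array. These intervals are wide enough that sizeable differences in either direction could not be seen with 5 and 5 rats. Egr3 differed by 0.45 ± 0.24, and by 0.14 without pain array 3, where it was at 8.88 against 7.04 to 7.51 on the others.

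Fkbp5 measured 8.90, 8.82, 9.47, 8.83 and 8.68 in pain arrays 1 to 5 and 8.51, 8.77, 8.93, 8.92 and 8.22 in IFC arrays 1 to 5. The groups overlapped, with a difference of 0.27 (95% interval -0.02 to 0.56), and 0.14 without pain array 3, the highest of the 10. The baseline mean was 8.44, below the pain mean of 8.94 and the IFC mean of 8.67. Of 19 glucocorticoid-responsive genes 10 were above 0, with a median of 0.01 (11 and 0.06 without pain array 3). Insig1, which holds back cholesterol synthesis, differed by -0.01 (-0.18 to 0.17), and by 0.03 without pain array 3, with means of 9.67 after pain and 9.67 after IFC, against 9.87 at baseline and 9.42 after isoflurane alone. Opcml, a cell-adhesion protein of the IgLON family, differed by -0.25 ± 0.13 on 1 probe set and 0.16 ± 0.14 on another (-0.18 and 0.11 without pain array 3).

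Hbb, the beta-globin of red cells, measured 10.78, 10.88, 10.21, 10.91 and 10.75 in pain arrays 1 to 5 and 10.66, 11.11, 12.14, 11.65 and 12.03 in IFC arrays 1 to 5. Pain values were the more closely grouped, and IFC array 1 lay within their range, with a difference of -0.81 ± 0.28 and -0.68 without pain array 3. Epb41, which links the red-cell membrane to its skeleton and is also made in neurons, differed by -0.61 ± 0.16 (-0.57). Of the 4 red-cell genes tested, 3 were below 0, with a median of -0.34, and -0.30 without pain array 3. The other members were near 0 or of opposite sign. Bpgm differed by -0.06 ± 0.11 (-0.04) and Slc4a1, the anion exchanger of red cells, by 0.15 ± 0.36 (0.09). The list median and score thus rest mainly on Hbb and Epb41. In bulk tissue, fewer cells of a type and less RNA per cell cannot be told apart. The summed red-cell score, the mean deviation of its members from their averages, ran from -0.49 to -0.04 in pain and from -0.29 to 0.25 in IFC, and its part in the other results was not tested.

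Summed scores of the other cell marker lists named here overlapped between the groups. Values in parentheses are without pain array 3. Of 13 microglial genes 11 were above 0, with a median of 0.17 that became 0.06 without pain array 3, and scores of -0.11 to 0.38 in pain and -0.19 to 0.20 in IFC. Laptm5, a lysosomal protein of immune cells, differed by 0.34 ± 0.18 (0.40). Aif1, the microglial protein Iba1, gave 0.25 ± 0.19 on 1 probe set and -0.39 ± 0.23 on another. Without pain array 3, where the first was at 9.25 against 8.12 to 8.67 on the other pain arrays, they gave 0.06 and -0.26. Of 9 markers of excitatory projection neurons 4 were above 0 (4), with a median of -0.18, which was -0.05 without pain array 3. Their scores ran from -0.23 to 0.29 in pain and from 0 to 0.22 in IFC. Nrgn, a calmodulin-binding protein of these neurons, differed by -0.22 ± 0.13, and by -0.05 without that array. Neurod2, of the same list, had the opposite sign, at 0.24 ± 0.19 (0.23). Vascular and meningeal markers had a median of -0.12 (-0.08). Astrocyte, myelin and interneuron lists had medians of 0.02, -0.01 and -0.02 (0, -0.02 and 0.03). Striatal markers, from the tissue beside the amygdala, had a median of -0.09 with and without that array, with scores of -0.34 to 0.44 in pain and -0.13 to 0.24 in IFC. Of 6 choroid plexus markers 3 were above 0 (1), with a median of -0.04 (-0.11). Aqp1, of this list, differed by 0.15 ± 0.26 (0.09). Slc4a2, an anion exchanger, differed by -0.34 ± 0.15, and by -0.38 without pain array 3, when its groups did not overlap. Ttr, a carrier of thyroid hormone made by the choroid plexus, was at 10.67 on IFC array 5 and at 6.92 to 8.97 on the other 9 arrays.

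RNA quality was compared through the ratio of 3′ to 5′ control probe sets, which is higher where transcripts are shortened. For GAPDH it was 1.13 ± 0.0777 (SD, n = 5) in pain and 1.25 ± 0.0853 in IFC, with an exact two-sided permutation p of 0.0397, or 0.119 adjusted over 3 ratios. Pain array 3 had the lowest GAPDH ratio, 1.02. The actin ratio was 1.37 against 1.61 (exact permutation p = 0.127) and the hexokinase ratio 3.14 against 3.39 (exact permutation p = 0.683). The part of these ratios in the gene differences was not tested.

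**Figure D5:**
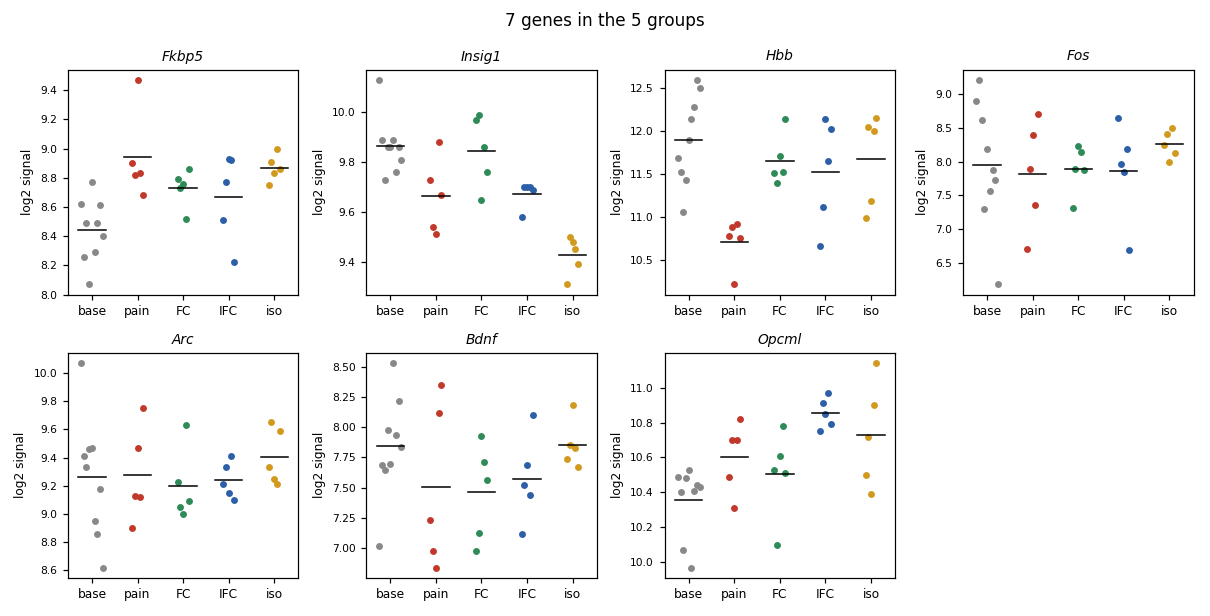
Log2 signal of Fkbp5, Insig1, Hbb, Fos, Arc, Bdnf and Opcml in baseline (base, 9 arrays), pain, FC, IFC and isoflurane (iso) arrays, 5 each. Points are arrays and bars are group means. Pain and IFC values overlap for each of the 7 genes.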

How the data were processed

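The starting point was the authors' deposited table, which gives 1 signal per probe set and rat. These are linear intensity values, scaled by the authors so that the mean without the lowest and highest 2% lies between 500.08 and 500.12 on each array. The software and the genome build are not given in the sources used here. Of 15923 probe sets, 57 controls were left out. Because log2 medians ranged over 0.47, above a limit of 0.2, signals were quantile normalized over the 29 arrays, set to at least 16 and transformed to log2. Probe sets with a mean at or above the 40th percentile (7.26) were kept, 9520 in all, of which 8043 have 1 gene symbol.

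Differences were fitted with limma 3.58.1 (R 4.3.3) on all 29 arrays with 1 mean per group and a variance trend, with Benjamini-Hochberg adjustment. The fit was tested on simulated data. The number of arrays limits the precision. Lists use 1 probe set per gene, the brightest. Genes were named if they passed adjustment, were among the 12 with the lowest p in each direction, the 2 with the lowest p in a list or the 5 largest without overlap in each direction, or were 1 of 7 genes named by earlier results. The result of 1 gene so chosen is not reported here. Other list members at unadjusted p under 0.05 were named after their values were seen. The members and lists were chosen with earlier results of these data known. No label says that the replicate numbers of the titles pair the rats, and the main fit did not pair them. Pain and IFC arrays of the same number had correlations of deviations of -0.08 to 0.19. Unmatched numbers were not compared, so these values cannot settle whether a pairing exists. Alternatives covered scaling, filter, floor, samples, block, variance trend, weights and replicates.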

Additional observations from a re-analysis of the deposited data

Results flagged for a closer look

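Of 190 groups of 5 values checked, 21 held a value whose gap to its neighbour exceeded 0.71 of the group's range. Of these, 10 belonged to pain array 3. Chance gives about 1 in 20 for independent groups that were not selected. Most groups here are of genes picked with these same arrays, so that share is no fair yardstick and the counts are only a description. That array was high for Fkbp5 (9.47), Egr3 (8.88), Atf4 (11.64) and its median deposited signal (292.2). It was low for Nrgn (11.81), Hbb (10.21), Per2 (6.93), Supt6h (7.44), Ep400 (6.72) and its mean correlation with the other arrays (0.9064). Per2, a circadian clock gene, therefore differed by -0.53 with that array and -0.14 without it.

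Among the other pain arrays, array 1 was low for Hsp90ab1 (11.79), array 4 was high for Grin1 (10.75) and low for Ndufs1 (10.25), and array 5 was low for Grik2 (7.06). Among the IFC arrays, array 1 was high for Ugdh (9.29) and low for Insig1 (9.58). IFC array 3 was low for Ndufs1 (10.07) and had the highest GAPDH 3′ to 5′ ratio (1.396). IFC array 4 was low for Scarf2 (7.00), and IFC array 5 was high for Pdhx (8.84) and low for Kcnj3 (6.41).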

How the results depend on the processing

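The limma count past adjustment stayed 0 under every alternative run, with a lowest adjusted p of 0.087 to 0.929 when 1 array was left out. The count at unadjusted p under 0.05, 874 in the report, was 1364 with no filter (15866 tested), 370 with a filter at the 70th percentile (4760 tested) and 480 without pain replicate 3 and normalized again; the changes with the filter follow the number tested. Leaving out 1 replicate at a time gave 481 (without pain 3) to 1180 (without pain 4). Array quality weights, chosen after seeing the data as was the renormalization, gave 1057, and the replicate block, with the number of the titles as a block, gave 924 and a lowest adjusted p of 0.404. Of 91 named gene results, 83 kept their sign under all alternatives, including all 24 of the lowest p. Those 24 were picked by p from these same arrays, so their kept signs are only a description. The signs that turned belonged to differences near 0 or to 1 array, and their cause was not tested. Under the deposited scaling Fos was 0.01 and Bdnf 0.05. With median centring Arc was -0.05, and Rheb and Rpl27 were 0 after rounding, just below it. With array weights Insig1 was 0.01 and Bdnf 0.10. Without pain 3 and normalized again Gng7 was -0.02, Insig1 0.03, Arc -0.01 and Bdnf 0.10. Leaving out 1 replicate gave -0.34 to 0.22 for Fos, -0.28 to 0.10 for Bdnf, -0.08 to 0.13 for Arc, -0.06 to 0.03 for Insig1, -0.02 to 0.28 for Gng7 and -0.91 to 0.03 for Ttr, the last above 0 without IFC 5. Of 630 list medians, 617 moved by less than the spread and 13 by more, 12 of these with median centring.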

Other observations

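Genes of cell adhesion and matrix, lipid synthesis and immune signalling held single members with low p. Values in parentheses are without pain array 3. Of 29 matrix and adhesion genes 15 were above 0, with a median of 0.01 (17 and 0.06). Lsamp, an IgLON adhesion protein, differed by 0.42 ± 0.14 (0.41) and L1cam, a neuronal adhesion protein, by -0.33 ± 0.13 (-0.24). Of 18 cholesterol synthesis genes 9 were above 0, with a median of 0 (10 and 0.03). Nsdhl, a sterol dehydrogenase, differed by 0.42 ± 0.15 (0.33) and Scap, the sterol-sensing escort of SREBP, by -0.26 ± 0.11 (-0.18). Of 10 cytokine and inflammation genes 5 were above 0 in both settings. Irf1, an interferon-responsive transcription factor, differed by 0.36 ± 0.17 (0.26), and Stat3 gave 0.47 ± 0.21 (0.34) on 1 probe set and 0.03 ± 0.12 (0.06) on another. Sv2b, a synaptic vesicle protein, ran from 9.90 to 12.57 in pain and from 12.39 to 12.72 in IFC, a difference of -1.07 (-1.08), and its other probe set differed by 0.09 ± 0.27 (0.12). None of these passed the limma test after adjustment.

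Other list members with the lowest p in their list had smaller or less certain differences. Ddit4, induced by glucocorticoids, differed by 0.29 ± 0.16 (0.37), and Junb, an activity-regulated factor, by 0.18 ± 0.15 (0.15). Rheb, an activator of mTOR, differed by 0.11 ± 0.06 (0.10), and Vgf, a secreted neuropeptide precursor, by 0.28 ± 0.20 (0.31). Chga, a granin of secretory vesicles, differed by -0.17 ± 0.15 (-0.23), and Vamp2, a SNARE of synaptic vesicles, by -0.32 ± 0.15 (-0.23). Pvalb and Cck, interneuron markers, differed by -0.33 ± 0.26 (-0.13) and 0.21 ± 0.19 (0.28). Hspe1 and Cryab, both chaperones, differed by 0.13 ± 0.07 (0.15) and 0.28 ± 0.16 (0.20). Rpl27, a ribosomal protein, differed by 0.10 ± 0.07 (0.10), and Nr1d2, a clock repressor, by -0.20 ± 0.14 (-0.13).

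Among markers of other cells and regions, Drd1 and Gng7 of striatum differed by -0.25 ± 0.20 (-0.18) and 0.17 ± 0.16 (-0.02). Tcf7l2 and Cartpt, of thalamus and hypothalamus, differed by -0.20 ± 0.16 (-0.21) and -0.26 ± 0.33 (-0.35). Of the 9 genes tested in that list, however, 5 were above 0, with a median of 0.04 (3 and -0.11). Cnp and Pllp, of myelin, differed by -0.18 ± 0.12 (-0.24) and 0.15 ± 0.16 (0.02). Aldh1l1 and Slco1c1, of astrocytes, differed by -0.34 ± 0.19 (-0.20) and 0.24 ± 0.15 (0.14). Rgs5 and Slc2a1, of vessels, differed by -0.21 ± 0.18 (-0.23) and -0.16 ± 0.14 (-0.16), and Ttr by -0.51 ± 0.83 (-0.62).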
